A study of Mus musculus with 4 samples.

Results

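The genes Cd274, Pdcd1lg2, Cd80, Cd86, Lgals9, Pvr, Icosl and Tnfsf9 encode ligands through which one cell restrains or promotes the activation of a T cell. They were taken by exact symbol from the gene rows of the count tables, where all 8 of the 8 were found among 55367 rows. A T cell that meets its antigen also reads a second set of signals, in which ligands on dendritic cells, macrophages, B cells or tumor cells bind receptors on the T cell. CD80 and CD86 deliver costimulation through CD28 and inhibition through CTLA-4, and PD-L1 (Cd274) and PD-L2 (Pdcd1lg2) inhibit through PD-1. ICOS ligand and 4-1BB ligand (Tnfsf9) costimulate through ICOS and 4-1BB, galectin-9 (Lgals9) is a ligand described for TIM-3, and the poliovirus receptor (Pvr, CD155) is shared by the inhibitory TIGIT and the activating CD226.

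The measurements came from 4 RNA-seq libraries of tumors of the mouse melanoma line B16-F10. Cells bearing CD45.2 and CD8 had been sorted from them according to the labels. By their titles, 2 libraries were labeled WT and 2 were labeled KO, and n = 2 holds for each group throughout. The series concerns mice with loxP-flanked Satb1 (Satb1 F/F) carrying either ThPOK-cre, which acts in cells committed to the CD4 lineage, or E8I-cre, which acts in mature CD8 cells. Which driver stood behind the title KO, and the age, sex and pooling of the animals, were not given in the labels. The study's methods describe young adult mice of mixed sexes. Nothing states that the 2 libraries of a group came from separate animals, so that the p-values measure only the spread between these libraries.

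The libraries were examined against their labels before the ligands. Reads on genes ranged from 4017875 to 5382915 per library. Satb1, the targeted gene, had counts of 7 and 5 under the label WT and of 131 and 55 under KO, higher under the label of the deletion, so every direction below is that of the libraries as labeled. Xist had 435 and 216 counts against 0 and 3, and sex cannot be told apart from the label. All 10 genes of a T cell marker list were higher in both libraries labeled KO, and the list summed to 91.4 and 128 normalized CPM (reads scaled to a common library size with TMM factors) in WT 1 and WT 2 against 2148 and 1239 in KO 1 and KO 2. A macrophage list of 10 genes summed to 26285, 27562, 6499 and 16499 in the same order, which exceeded the T cell list in all 4 libraries and went against the sort. They are therefore called cells sorted from tumors here, with no cell type name. Per 1000 T cell marker reads, Satb1 had 23.0, 9.69, 11.6 and 7.75 reads in the same order, and the groups overlapped. A B cell list of 6 genes summed to 105, 224, 228 and 172 normalized CPM, most of it from Ighm, an immunoglobulin chain, while Pax5, a transcription factor of B cells, had 0 counts in every library.

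**Figure D1:**
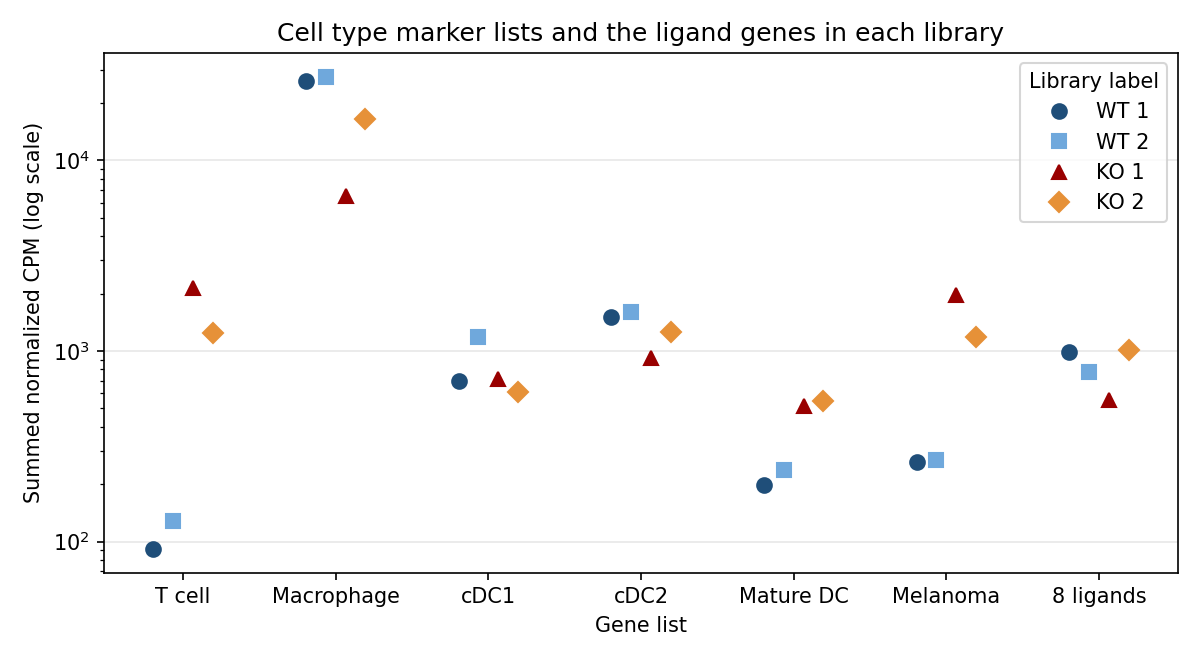
Summed normalized CPM (log axis) of 6 cell type marker lists and of the 8 ligand genes in each library, 1 symbol per library. The summed T cell, mature dendritic cell (DC) and melanoma lists were higher in both libraries labeled KO, and the summed macrophage list was lower. Within the mature DC, melanoma and macrophage lists, some genes did not follow the sum. The summed ligand genes, from 554 in KO 1 to 1013 in KO 2, overlapped between the labels.

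The promoter windows of Lgals9 and Cd274 are shown because interferon is a known inducer of both genes, and the letters it is known to act through can be looked for. Windows of 300 bases, from 250 before to 50 after the start of transcription, were available from RefSeq (GRCm38.p6) for 5 of the 8 genes: Cd274, Lgals9, Pdcd1lg2, Cd80 and Icosl. Capitals mark matches to the letters GAAANNGAA, repeated GAA cores as bound by interferon regulatory factors (IRF), found here on the strand opposite to the printed one. The Cd274 window lies on the plus strand at chr19:29367188-29367487, and the Lgals9 window on the minus strand at chr11:78984875-78985174.
Cd274: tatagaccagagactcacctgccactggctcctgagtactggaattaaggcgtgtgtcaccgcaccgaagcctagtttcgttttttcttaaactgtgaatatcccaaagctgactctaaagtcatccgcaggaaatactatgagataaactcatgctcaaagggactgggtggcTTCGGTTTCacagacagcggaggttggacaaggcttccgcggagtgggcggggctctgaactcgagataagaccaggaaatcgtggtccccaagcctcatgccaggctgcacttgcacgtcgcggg
Lgals9: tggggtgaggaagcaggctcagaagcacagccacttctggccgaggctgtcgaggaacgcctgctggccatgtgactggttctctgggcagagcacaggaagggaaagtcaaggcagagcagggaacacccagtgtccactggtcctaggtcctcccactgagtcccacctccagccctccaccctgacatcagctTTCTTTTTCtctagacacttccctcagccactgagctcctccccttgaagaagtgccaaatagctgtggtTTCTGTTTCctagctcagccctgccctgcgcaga
The match in Cd274 began 76 bases before the start, and those in Lgals9 began 54 bases before and 16 bases past it. In all, 3 motifs were searched on both strands: these IRF letters, TTCNNNGAA (the gamma-interferon activated site, GAS) and GGNNTTTCC (the last bases of a κB site). The IRF and GAS letters can share bases, as can the IRF and κB letters, and only the IRF letters were found in the printed windows. Of 32851 windows of that length, 8.56% held the IRF letters, 8.30% the GAS letters and 5.82% the κB letters. The windows of Pdcd1lg2, Cd80 and Icosl held none of the 3. That of Cd80, chr16:38458683-38458982, lies inside the gene as annotated from 38455561, so the bases at that start were not searched. A match describes letters and not a bound site.

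Per length, Lgals9 was the most abundant of the ligands in every library. Its level, in normalized CPM per kilobase of merged exon, was 288 and 218 for WT 1 and WT 2 and 91.4 and 216 for KO 1 and KO 2. Tnfsf9 followed with a mean of 58.2 ± 34.4 (SD over the 4 libraries), then Cd274 with 38.0 ± 14.2, Cd86 with 21.8 ± 9.75 and Pdcd1lg2 with 13.9 ± 4.16. Pvr had 8.98 ± 1.40, Icosl 2.86 ± 0.609 and Cd80 2.70 ± 1.71. On this scale Lgals9 exceeded Tnfsf9, Pdcd1lg2 exceeded Pvr and Pvr exceeded Icosl in 4 of 4 libraries. The neighbors Tnfsf9 and Cd274, Cd274 and Cd86, Cd86 and Pdcd1lg2, and Icosl and Cd80 kept their order in only 3 of 4 libraries, within the spread between libraries. With the longest transcript as the length, Pvr at 18.9 passed Pdcd1lg2 at 15.8.

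**Figure D2:**
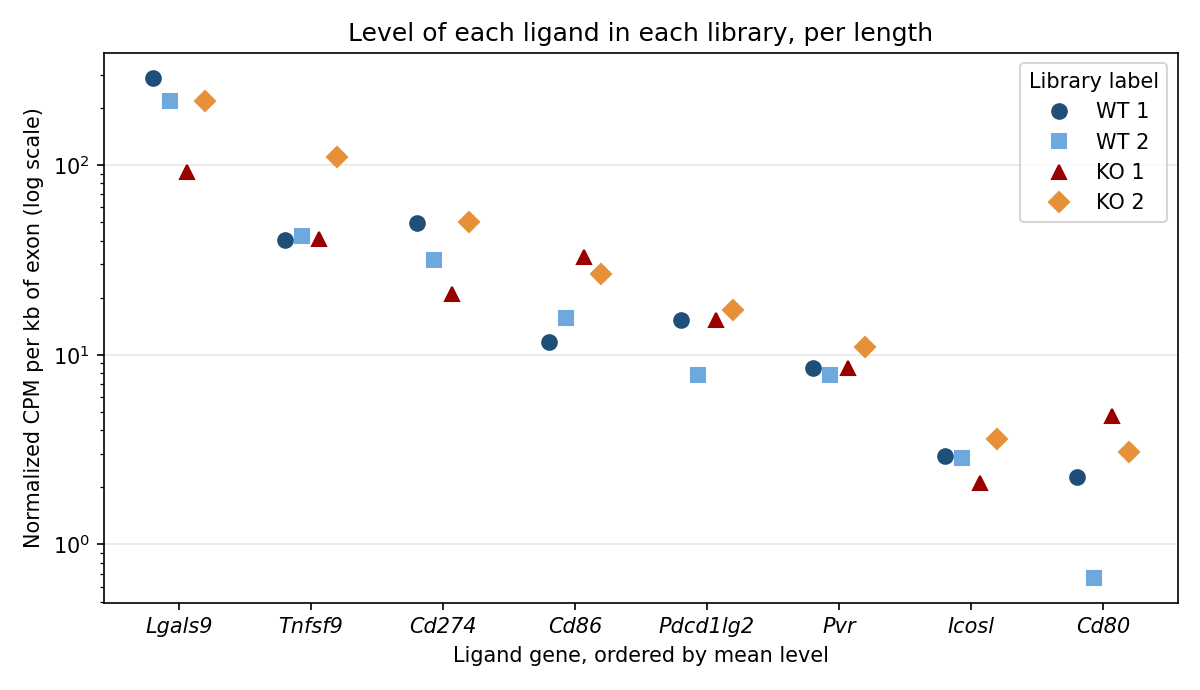
Normalized CPM per kilobase of merged exon (log axis) for each ligand gene, with 1 symbol per library and genes ordered by their mean. Lgals9 sits from 91.4 to 288 and Cd80 from 0.669 to 4.78, and for Cd86 both libraries labeled KO lie above both labeled WT.

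The comparison of the libraries labeled KO with those labeled WT asked whether the ligands differed between the labels in cells sorted from tumors. Cd86 and Cd80 had the highest log2 fold changes of the 8 genes and Lgals9 the lowest. All 8 passed the filter on low counts, and 0 of the 8 passed the threshold of 0.05 in the edgeR quasi-likelihood test adjusted over all genes, where 0.574% of the 11837 genes tested did. At an unadjusted p under 0.05 the number was 1, Cd86, against a background of 13.7% of genes. DESeq2 and the likelihood ratio test of edgeR also called 0 of the 8, where they called 3.51% and 4.7% of all genes. The fitted change was above 0 for 5 of the 8 genes and their median was 0.38 on the log2 scale, beside 52.6% of all genes tested and a median of 0.05. Both libraries labeled KO lay above both labeled WT for 4 of the 8, Pdcd1lg2, Cd80, Cd86 and Pvr, where 25.3% of all genes did so. They lay below for 1, Lgals9, where 22.6% of all genes did so. The median SE of the 8 log2 fold changes was 0.52, and each 95% interval reached past a 2-fold change in at least 1 direction. In bulk RNA, fewer cells of a type and less RNA per cell cannot be told apart.

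**Figure D3:**
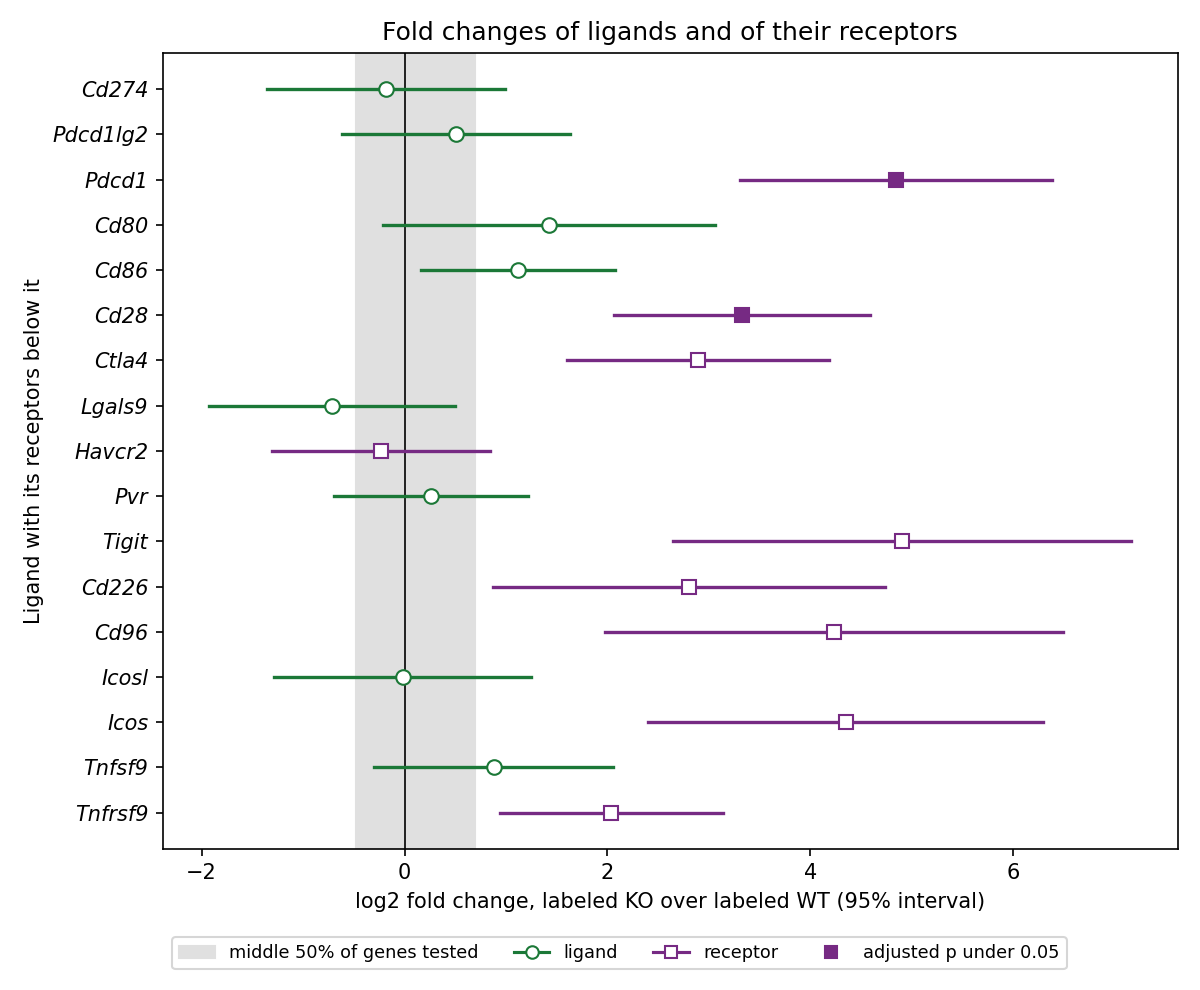
Log2 fold change of the libraries labeled KO over those labeled WT with its 95% interval, for the 8 ligands (circles) and 9 receptors (squares), filled where the edgeR adjusted p was under 0.05; the gray band spans the middle 50% of genes tested, from -0.48 to 0.70. The ligands lie from -0.72 to 1.42, whereas 8 of the 9 receptors lie from 2.04 to 4.90.

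The genes for the PD-1 ligands are neighbors on chromosome 19 of GRCm38, both on the plus strand. Cd274 (ENSMUSG00000016496.7) spans 29367455 to 29388095 and Pdcd1lg2 (ENSMUSG00000016498.10) spans 29410919 to 29471161, with a gap of 22.8 kb and 0 protein-coding genes between them. Cd274 encodes PD-L1, which many cells display after exposure to interferon gamma. WT 1 and WT 2 held 594 and 463 of its reads, and KO 1 and KO 2 held 399 and 1043, or 179, 115, 75.9 and 182 normalized CPM. The libraries labeled KO held both the lowest and the highest value, and the groups overlapped. The means were 147 ± 45.2 (SD, n = 2) and 129 ± 75 (SD, n = 2). This gave a log2 fold change of -0.18 (SE 0.52), with a 95% interval from -1.36 to 0.99 (edgeR adjusted p = 0.906). The sign rested on single libraries, since the log2 fold change became 0.13 without WT 1 and 0.31 without KO 1. Of the merged exon bases of Cd274, 14.1% are shared with AC119228.1 on the other strand, which was not analysed here, and the strand setting of the counting was not given.

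Pdcd1lg2 encodes PD-L2, which is displayed mainly by dendritic cells and macrophages. In WT 1, WT 2, KO 1 and KO 2 its counts were 99, 62, 158 and 194, or 29.8, 15.4, 30.1 and 33.9 normalized CPM. WT 2 stood low and the other 3 libraries lay close together, with KO 1 above WT 1 by less than 1 CPM. The fitted log2 change was 0.51 (SE 0.50), with a 95% interval from -0.62 to 1.63 (edgeR adjusted p = 0.689), and it became 1.0 without WT 1 and 0.06 without WT 2. The reads of the 2 neighbors were also compared inside each library, where scaling plays no part. Cd274 took 85.7% of their joint reads in WT 1 (exact Clopper-Pearson 95% interval 82.9 to 88.2), 88.2% for WT 2 (85.1 to 90.8), 71.6% for KO 1 (67.7 to 75.3) and 84.3% in KO 2 (82.2 to 86.3). The interval of KO 1 lay below those of the other 3 libraries, which overlapped one another. These intervals take in the error of counting alone, because reads that carry no molecular identifier need not be separate molecules.

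Cd80 and Cd86 encode the B7 ligands of CD28 and CTLA-4. Both lie on chromosome 16 of GRCm38, Cd86 (ENSMUSG00000022901.13) from 36603869 to 36666081 on the minus strand and Cd80 (ENSMUSG00000075122.5) from 38455561 to 38496335 on the plus strand, with 1789 kb between them. Cd86, the more broadly expressed of the pair on resting antigen-presenting cells, was counted 143 and 232 times in the WT-labeled pair, then 632 times in KO 1 and 561 times in KO 2. Its normalized CPM were 43.0, 57.5, 120 and 97.9 in that order, so that each library labeled KO exceeded each labeled WT. The means, 50.2 ± 10.2 (SD, n = 2) and 109 ± 15.8 (SD, n = 2), differed 2.17-fold, where the higher library exceeded the lower by 1.34-fold within WT and 1.23-fold within KO. The estimated log2 fold change was 1.12 (SE 0.43), with a 95% interval from 0.16 to 2.08, and it did not pass the threshold over all genes (edgeR adjusted p = 0.2995, unadjusted p = 0.0270). Leaving out 1 library at a time moved it between 0.86 and 1.29.

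Cd80, which antigen-presenting cells raise on activation, had the fewest reads of the 8 ligands over the 4 libraries pooled, with 28, 10, 93 and 65 in WT 1, WT 2, KO 1 and KO 2. The values of 8.42, 2.48, 17.7 and 11.3 normalized CPM did not overlap between the groups, but the libraries labeled WT differed 3.40-fold from each other. On the log2 scale the change was 1.42 (SE 0.73), with a 95% interval from -0.21 to 3.06 (edgeR adjusted p = 0.4225). It became 2.47 without WT 1 and 0.73 without WT 2. Cd86 made up 83.6% of the joint reads of the pair in WT 1 (exact Clopper-Pearson 95% interval 77.2 to 88.8), 95.9% for WT 2 (92.5 to 98.0), 87.2% for KO 1 (84.5 to 89.5) and 89.6% in KO 2 (87.0 to 91.9). The groups overlapped in this share, and WT 2, with 10 reads of Cd80, was the library that stood apart. A list of 8 markers of mature dendritic cells summed to 198, 237, 512 and 548 normalized CPM in the same order, with 5 of its 8 genes higher in both libraries labeled KO. Most of that difference was Ccr7, which T cells also make, and without it the other 7 genes summed to 192, 228, 252 and 273. Within that list Ccl22, a chemokine, had 16, 28, 224 and 250 counts, whereas Zmynd15 had 462, 453, 176 and 511 and was lower in both libraries labeled KO after scaling, and Il4i1 and Socs2 overlapped between the groups. Lists of the cDC1 and cDC2 types of dendritic cell summed to 697, 1187, 716 and 607 and to 1516, 1600, 921 and 1262 normalized CPM, with overlapping groups for cDC1. Of the 5 cDC2 genes tested, 2 were higher and 3 lower in both libraries labeled KO, and without Sirpa, which macrophages also make, that list summed to 484, 701, 617 and 550, with overlapping groups. A list of 6 genes shared by dendritic cells summed to 90.8, 164, 194 and 158, with overlapping groups. Of its 5 genes tested, 4 had a change above 0, beside 52.6% of all genes. Both libraries labeled KO were higher for 3, Zbtb46, Dpp4 and Kit, beside 25.3% of all genes. The part of dendritic cells in the values of Cd86 and Cd80 was not tested.

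Lgals9 (ENSMUSG00000001123.15, chromosome 11, 78962974 to 78984946, minus strand) encodes galectin-9, a secreted lectin that binds sugars on cell surface proteins. Counts stood at 2046 and 1884 for WT 1 and WT 2 and at 1027 and 2649 for KO 1 and KO 2, or 615, 467, 195 and 462 normalized CPM. KO 1 held less than any other library, while KO 2 lay just under WT 2. Its log2 fold change was -0.72 (SE 0.54), with a 95% interval from -1.93 to 0.49 (edgeR adjusted p = 0.579). Without KO 2 it was -1.50 and passed the threshold (edgeR adjusted p = 0.0376), as did 9.71% of all genes tested in that fit, and without KO 1 it was -0.23. The macrophage list, at 26285, 27562, 6499 and 16499 normalized CPM from WT 1 to KO 2, was also lowest in KO 1. Unlike Lgals9, it was higher in WT 2 than in WT 1 and clearly lower in KO 2 than in WT 2. Of its 10 genes, 7 were lower in both libraries labeled KO, beside 22.6% of all genes, while Adgre1, Csf1r and Mrc1 overlapped between the groups. Sirpa, an inhibitory receptor of myeloid cells, had the most similar profile of the listed genes, with 1032, 899, 303 and 712 normalized CPM. The part of macrophage content in the value of Lgals9 was not tested.

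Pvr (ENSMUSG00000040511.14, chromosome 7, 19903578 to 19921160, minus strand), an adhesion molecule found on tumor, stromal and myeloid cells, varied least of the 8 genes. Counts of 174, 193, 275 and 386 for WT 1, WT 2, KO 1 and KO 2 corresponded to 52.3, 47.8, 52.3 and 67.4 normalized CPM. WT 1 and KO 1 were level to within 1 CPM, and the highest library exceeded the lowest by 1.41-fold. Its log2 fold change was 0.26 (SE 0.42), with a 95% interval from -0.70 to 1.21 (edgeR adjusted p = 0.822). Melanoma markers, as a list of 7 genes, summed to 262, 268, 1975 and 1177 normalized CPM in the same order, with 6 of the 7 higher in both libraries labeled KO. Markers of fibroblasts and endothelium, a list of 6 genes, summed to 24.9, 20.3, 1155 and 186, and 3 of the 4 that were tested passed the threshold upward. The part of melanoma and stromal cells in the value of Pvr was not tested.

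Icosl (ENSMUSG00000000732.9, chromosome 10, 78069302 to 78083913, plus strand) had 45, 53, 51 and 95 counts in the same order. Its normalized CPM of 13.5 and 13.1 in the libraries labeled WT lay between the 9.70 of KO 1 and the 16.6 of KO 2. Its log2 fold change was -0.02 (SE 0.56), with a 95% interval from -1.28 to 1.24 (edgeR adjusted p = 0.992), and it became 0.31 without KO 1. Changes of 2-fold in either direction lay inside that interval.

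Tnfsf9 (ENSMUSG00000035678.8, chromosome 17, 57105325 to 57107757, plus strand), the ligand of 4-1BB, was counted 172, 219, 278 and 812 times, WT libraries first. In normalized CPM, 3 libraries were nearly level at 51.7, 54.2 and 52.9, and KO 2 stood apart at 142. The fitted log2 change of 0.88 (SE 0.52) had a 95% interval from -0.30 to 2.06 (edgeR adjusted p = 0.484), and it rested on KO 2, since it was -0.04 without that library. Of its merged exon bases, 14.9% are shared with Gm11110 on the other strand, a gene with counts of 41, 22, 60 and 136 in the same order. Reads of the pair could not be assigned by strand with certainty.

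The receptors of these ligands were read from the same fit, and most were higher in the libraries labeled KO. Of the 9 receptor genes, 8 had a fitted change above 0, all 8 with no overlap between the groups, and the median log2 fold change was 3.33. Over all genes tested 52.6% had a change above 0 and 25.3% lay higher without overlap. In the edgeR quasi-likelihood test 2 of the 9 passed the threshold, both upward, beside 0.574% of all genes, whereas DESeq2 and the likelihood ratio test of edgeR each called 8 of the 9, all but Havcr2, beside 3.51% and 4.7% of all genes. Pdcd1, which encodes PD-1, had counts of 15, 41, 605 and 1781 for WT 1, WT 2, KO 1 and KO 2, giving a log2 fold change of 4.84 (SE 0.68, edgeR adjusted p = 0.0269). Cd28, the costimulatory receptor of CD80 and CD86, had 15, 12, 184 and 230 counts, giving a log2 fold change of 3.33 (SE 0.56, edgeR adjusted p = 0.0396). For both receptors each library labeled KO exceeded each labeled WT. Without WT 2, Cd28 did not pass (log2 fold change 3.01, edgeR adjusted p = 0.0895), while Pdcd1 passed whichever library was left out, with a log2 fold change of 3.91 without KO 2, 4.35 without WT 1, 5.37 without KO 1 and 5.52 without WT 2. Ctla4, the inhibitory receptor of the same ligands, had 17, 49, 425 and 278 counts (edgeR adjusted p = 0.0624). Tnfrsf9, which encodes 4-1BB, had 178, 104, 845 and 942 counts and a log2 fold change of 2.04 (edgeR adjusted p = 0.1245).

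Receptors of Pvr and of ICOS ligand had few reads in the libraries labeled WT. Tigit had 0, 4, 99 and 82 counts for WT 1, WT 2, KO 1 and KO 2. Cd96 had 0, 7, 95 and 99 counts, Cd226 had 6, 18, 194 and 44, and Icos had 2, 4, 131 and 52. None of the 4 passed the threshold (edgeR adjusted p = 0.0700, 0.119, 0.2155 and 0.0624), although all were higher in both libraries labeled KO. Their DESeq2 adjusted p were 0.0005125, 0.001304, 0.03996 and 0.001017. Havcr2, which encodes TIM-3 and is also made by myeloid cells, was the exception among the receptors, with 83, 87, 108 and 109 counts, a log2 fold change of -0.23 and an edgeR adjusted p of 0.863. After scaling, both libraries labeled KO lay below both labeled WT for Havcr2. The T cell marker list rose beside the receptors, with all 10 genes higher in both libraries labeled KO and 9 past the threshold. The part of T cell content in the receptor values was not tested.

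The remaining lists of the pathway, other ligands of the same families and the signaling genes that act on them, held 0 genes called by the quasi-likelihood test of edgeR, out of 11 and 12 tested, beside 0.574% of all genes. DESeq2 called Tnfsf4 and Ifng, 1 gene of each list (adjusted p = 0.02732 and 6.442e-05), and the likelihood ratio test of edgeR called these and Tnfsf8 (adjusted p = 0.04723). At an unadjusted p under 0.05 there were 3 and 2 genes, where 13.7% of all genes were. Of the other ligands, 11 of 17 passed the filter and 7 of the 11 had a fitted change above 0, beside 52.6% of all genes, with a median log2 fold change of 0.37. Tnfsf4, which encodes the ligand of OX40, had 4, 0, 61 and 45 counts from WT 1 to KO 2, and Tnfsf8, which encodes the ligand of CD30, had 0, 2, 22 and 15 (edgeR adjusted p = 0.1781 and 0.2733). The 3 highest in normalized CPM, not divided by length, were Vsir, Cd47 and Cd48. Vsir, which encodes the inhibitory ligand VISTA, had counts of 2309, 2494, 925 and 1898 from WT 1 to KO 2, and its log2 fold change was -1.37 (SE 0.50, edgeR adjusted p = 0.286). Cd47, a signal against phagocytosis, and Cd48, a ligand of CD244, had log2 fold changes of -0.08 and 0.06 (edgeR adjusted p = 0.963 and 0.968). Vtcn1 had 0 counts in every library. Of the 12 signaling genes 7 had a fitted change above 0, with a median of 0.08. The 3 highest in normalized CPM were Irf1, a transcription factor induced by interferon, Ifngr1, a chain of the interferon gamma receptor, and Jak1, a kinase of that receptor. Their log2 fold changes were -0.25, 0.61 and 0.77 (edgeR adjusted p = 0.839, 0.567 and 0.446). Ifng itself, a T cell cytokine, had 8, 15, 386 and 106 counts and a log2 fold change of 3.89 (edgeR adjusted p = 0.0617). Leaving out KO 1 gave 2.57 for Ifng, and leaving out KO 2 gave 4.52. Ifng passed with the replicate block (edgeR adjusted p = 0.005314), which called 201 genes higher and 14 lower. It also passed with library totals alone (edgeR adjusted p = 0.04409), which called 131 and 3. It did not pass with DESeq2 size factors, upper-quartile factors or a filter of 1 CPM in 2 libraries (edgeR adjusted p = 0.06339, 0.07232 and 0.0699). Of the merged exon bases of Ifng, 25.9% are shared with Gm49751 on the same strand. Cd40, an activating receptor of antigen-presenting cells, was the other signaling gene at an unadjusted p under 0.05, with 638, 721, 366 and 472 counts and a log2 fold change of -1.28 (edgeR adjusted p = 0.2364). Jak2, also a signaling gene of the list, had 35, 95, 431 and 94 counts, with overlapping groups and a log2 fold change of 1.52 (edgeR adjusted p = 0.401). Whether Cd40, Vsir and Jak2 passed the threshold depended on KO 2.

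The make-up of the ligand reads was led by Lgals9 in every library, with a larger share in the libraries labeled WT. The 8 genes together held 3301, 3116, 2913 and 5805 reads for WT 1, WT 2, KO 1 and KO 2. Lgals9 made up 62.0% and 60.5% of them under the label WT and 35.3% and 45.6% under the label KO, each known to within 2 percentage points of counting error. Cd86 made up 4.33% and 7.45% against 21.7% and 9.66%, and Tnfsf9 5.21% and 7.03% against 9.54% and 14.0%. The shares of Pvr, Pdcd1lg2 and Cd80 were also higher in both libraries labeled KO. A lower share of Lgals9 raises the shares of the other genes by arithmetic, and with 2 libraries a group an exact permutation test cannot give a p-value below 0.333, so no test was made. Cd274 kept 18.0%, 14.9%, 13.7% and 18.0% of the ligand reads, with overlapping groups.

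**Figure D4:**
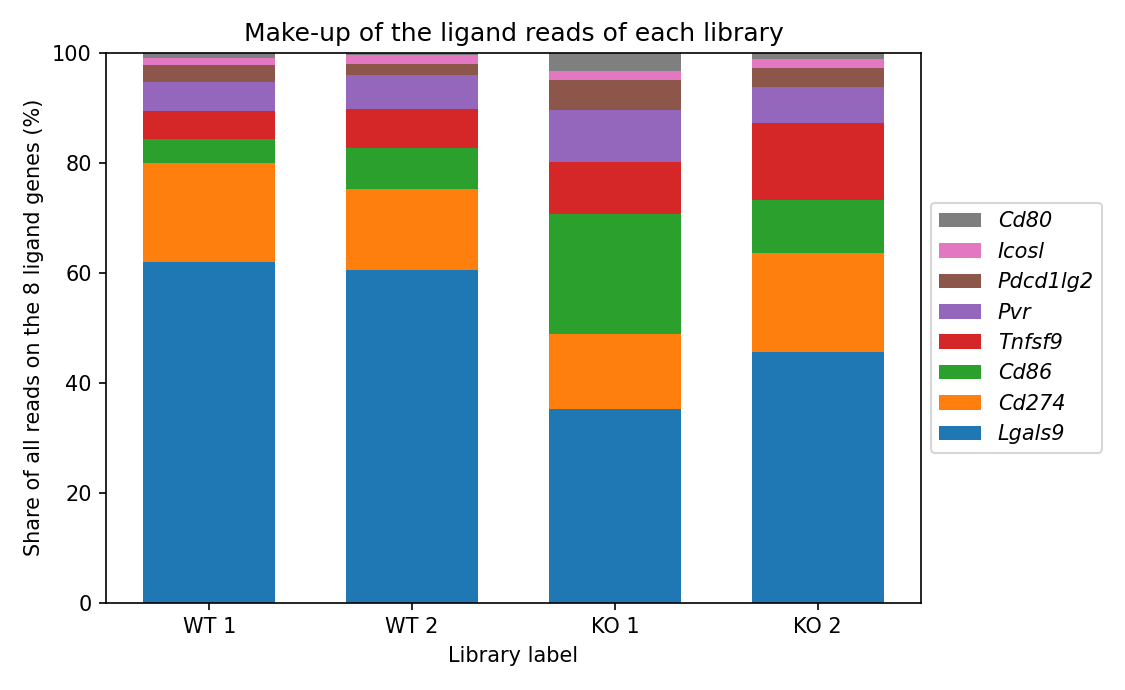
Share of all reads on the 8 ligand genes taken by each gene (bars add up to 100%), for each library by its label. Lgals9 takes 62.0% and 60.5% under the label WT and 35.3% and 45.6% under KO, and the share of Cd86 is largest in KO 1 at 21.7%.

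Ligand reads were also set against the reads of antigen-presenting cells, taken as 38 markers of macrophages and dendritic cells. These summed to 28787, 30750, 8842 and 19073 normalized CPM for WT 1, WT 2, KO 1 and KO 2. In every library most of these reads came from C1qa, C1qb, C1qc, Apoe and Cd68, all lower in both libraries labeled KO. In WT 1, C1qb alone held 25171 of the 95773 marker reads. The scale therefore mainly follows those genes, whereas the macrophage markers Csf1r, Adgre1 and Mrc1 overlapped between the groups. Per 1000 marker reads, Cd86 had 1.49 and 1.87 reads under the label WT and 13.6 and 5.13 under KO. Cd274 had 6.20 and 3.73 against 8.59 and 9.54, and Lgals9 21.4 and 15.2 against 22.1 and 24.2. All 8 ligands were higher in both libraries labeled KO on this scale, but so were 65.4% of all genes tested, and the summed markers were themselves lower in both. In the fit scaled to these markers the median log2 fold change of all genes was 1.34, and Cd86 passed the threshold (edgeR adjusted p = 0.0496), as did 5.91% of all genes. Relative to that median, Cd86 had a log2 difference of 1.14 and Cd80 of 1.45, whereas Cd274 had -0.47 and Lgals9 -1.0.

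Among each other, the profiles of the ligands over the 4 libraries fell apart by gene. Likeness was measured as the root mean square difference of log2 CPM after centering each gene on its mean, over 4 libraries. Pvr and Icosl were the closest pair at 0.21, followed by Cd274 and Lgals9 at 0.29. Cd80 and Lgals9 were the farthest apart at 1.42, and the neighbors Cd274 and Pdcd1lg2 stood at 0.58. Among 93 genes of the other lists, those closest to Cd274 were Irf1 at 0.333 and Rela at 0.350, and those closest to Pdcd1lg2 were Jak1 at 0.315 and Cd276 at 0.40. The closest to Cd86 were Tcf4 at 0.28 and Jak1 at 0.29, to Cd80 Sox10 at 0.32 and Tnfrsf9 at 0.425, and to Lgals9 Sirpa at 0.13 and Csf3r at 0.15. Pecam1 was closest to both Pvr (0.14) and Icosl (0.105), followed by Cmtm4 (0.22) and Rela (0.15), and Ceacam1 (0.21) and Nectin2 (0.28) were closest to Tnfsf9. With 4 libraries such likeness is a description of these profiles and was not tested.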

How the data were processed

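RNA-seq was available for 4 libraries of sorted cells of B16-F10 tumors, 2 labeled WT and 2 labeled KO by title. The authors deposited raw read counts per gene symbol, 1 table per library, not pooled. Their processing notes name HISAT2 2.1.0, HTSeq 0.11.0 and the mouse build mm10; annotation, strand setting and trimming were not given in the sources used here. Summary lines that name no gene held 71.2% to 79.5% of the reads of a table and were left out. Of the 55367 symbols, 96.3% matched GENCODE M21 (GRCm38), which gave positions and exon lengths.

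Low genes were removed with filterByExpr (minimum count 10, minimum total 15), and the rest were fitted in edgeR 4.0.16 under R 4.3.3, with TMM factors, group as the only term and the quasi-likelihood F test, two-sided and adjusted over all genes by Benjamini-Hochberg with a threshold of 0.05. The SE of a log2 fold change is its size over the square root of F. The fit was also run on simulated counts, but the outcome is not given here and is not used as support. Chi-square per degree of freedom between libraries was at least 27.2, so no libraries were taken as 1. It was 85.1 between KO 1 and KO 2, above WT 1 with KO 2 (69.0), WT 2 with KO 1 (66.4) and WT 2 with KO 2 (47.9). Only WT 1 with KO 1 was higher, at 105.8. Same-numbered libraries had deviations with a correlation of -0.18 over 11837 genes, and were not treated as pairs.

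The ligands and the lists were chosen with earlier results of these data known. Named were all ligands and receptors, the 3 genes highest in normalized CPM of the other pathway lists and any past the threshold, the 2 listed genes closest to each ligand, and markers at 0; the values of Ccl22, Ccr7, Cd40, Ifng, Ighm, Il4i1, Socs2, Tnfsf4, Tnfsf8, Zmynd15 and Sirpa, Satb1 per T cell marker read and the dendritic sums without Ccr7 or Sirpa were added after values were seen. Alternatives were other scaling factors, scaling to marker reads, other filters, DESeq2 1.42.0, the likelihood ratio test, a larger prior count, a replicate block and each library left out; a crossed block was added after seeing the data. Plots used matplotlib 3.10.9.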

Additional observations from a re-analysis of the deposited data

How the results depend on the processing

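Of 120 alternative values of the log2 fold changes of the 8 ligands, 108 kept their sign and their side of the threshold, 2 passed the threshold and 10 changed sign. With library totals alone Cd274 became 0.15 and Icosl 0.30, and with upper-quartile factors Icosl became 0.02. Scaled to the macrophage and dendritic markers, Cd274 became 0.87, Lgals9 0.34 and Icosl 1.13, with the median of all genes at 1.34, and 1 ligand passed, Cd86 (edgeR adjusted p = 0.0496), in a fit that called 696 genes higher and 4 lower. With 1 library left out, Cd274 ranged from -0.98 to 0.31, Icosl from -0.49 to 0.31, Tnfsf9 from -0.04 to 1.41, and 0 to 1 ligands passed, the 1 being Lgals9 without KO 2. The number of pathway genes past the threshold, 2 in the reported fit, was 5 with library totals alone, 10 when scaled to the markers, with no filter on low counts or in DESeq2, and 11 in the likelihood ratio test. It ranged from 3 to 12 with 1 library left out (4 without WT 1, 6 without WT 2, where Cd28 was lost, 3 without KO 1 and 12 without KO 2). With a replicate block it was 7 and with the crossed pairing of the numbers 10, while 0 ligands passed under either block. Of all 11837 genes tested, the crossed block called 535 higher and 112 lower, and library totals alone called 131 and 3. Over all genes, calls went from 65 higher and 3 lower to 505 and 78 with no filter, 350 and 66 in DESeq2, 476 and 80 in the likelihood ratio test, 201 and 14 with the replicate block, and 725 and 523 without KO 2. The cause of these differences was not tested. At these depths 3 counts correspond to 0.524 to 0.902 normalized CPM.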
